A study of Mus musculus with 6 samples.

Results

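The embryonic stem cell cluster of miR-290 to miR-295 was represented by 9 mature miRNAs, 5 from the 5p arm and 4 from the 3p arm of their hairpins, of 1831 miRNAs that the authors' deposited table holds. The 5p members were mmu-miR-290a-5p, mmu-miR-291a-5p, mmu-miR-292a-5p, mmu-miR-292b-5p, and mmu-miR-293-5p, and the 3p members mmu-miR-291a-3p, mmu-miR-292a-3p, mmu-miR-294-3p, and mmu-miR-295-3p, written below without the prefix for mouse. The members were selected by name from that table, with its values already known, and they are 9 of the 17 strands of this cluster that the table holds. Small RNAs had been measured on 6 one-colour arrays, each hybridised with RNA from the small intestinal mucosa of 1 mouse, to compare 3 littermates (labelled wildtype) with 3 Cdr1as-/- mice. Cdr1as is a circular RNA, and its locus had been deleted with CRISPR/Cas9 on a C57BL/6J background, so that Cdr1as-/- mice lacked it in every tissue and not in the epithelium alone. All mice were untreated as far as the labels say, and their age is not given in the sources used here. The level of Cdr1as in these 6 samples was not analysed here, so the genotype labels are not checked by these data. The mice are separate samples by label, and p-values measure the spread between these arrays.

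A miRNA hairpin can release a mature strand from either arm, and bases 2 to 8 of that strand, the seed, pair with target mRNAs. The plus-strand hairpins of the cluster are transcribed together in mouse embryonic stem cells, where their miRNAs are among the most abundant miRNAs and help cells pass from G1 to S phase, and they are shut down as cells differentiate. An adult intestinal mucosa is therefore a tissue in which low levels of these miRNAs are known to be usual. By RefSeq annotation on GRCm38.p6, 9 hairpins lay within 2216 bases of the chromosome at chr7:3218626-3220841. Of these hairpins, 7 were on the plus strand, while Mir290b and Mir292b were on the minus strand, inside Mir290a and Mir292.

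RefSeq mature sequences were found for 8 of the 9 members, all but miR-292a-3p, and are shown because the seed divides these 8 by arm. Each sequence is written 5′ to 3′ with the seed in capitals. The first set holds the 5p strands. All of them lie on the plus strand except miR-292b-5p, at chr7:3219237-3219259 on the minus strand.
miR-290a-5p: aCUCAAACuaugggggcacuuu
miR-292a-5p: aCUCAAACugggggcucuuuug
miR-293-5p: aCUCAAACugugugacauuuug
miR-292b-5p: aCUCAAAAccuggcggcacuuuu
miR-291a-5p: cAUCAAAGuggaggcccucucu

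The second set holds the 3p strands except miR-292a-3p, and they share the seed best known in embryonic stem cells.
miR-291a-3p: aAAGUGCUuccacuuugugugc
miR-294-3p: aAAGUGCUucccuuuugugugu
miR-295-3p: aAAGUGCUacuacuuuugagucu

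The 5p strands miR-290a-5p, miR-292a-5p, and miR-293-5p shared CUCAAAC, whereas miR-292b-5p carried CUCAAAA and miR-291a-5p AUCAAAG. miR-291a-3p, miR-294-3p, and miR-295-3p shared AAGUGCU. Aligned from their 5′ ends without gaps, miR-291a-3p and miR-294-3p were identical at 19 of 22 positions, miR-290a-5p and miR-292b-5p at 18 of 22, and miR-292a-5p and miR-293-5p at 17 of 22. Probes for such close sequences can share target RNA, and how far they did so was not tested.

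The arrays differed in brightness before scaling, and littermate 3 stood apart. Over all miRNA probes the processed signal had a median of 236 in littermate 3, whereas the remaining 5 arrays had medians from 8.75 to 29.2. Littermate 3 had a rank correlation of 0.7059 with littermate 1 and 0.7135 with littermate 2 over the 1831 miRNAs, whereas littermates 1 and 2 correlated at 0.9726. These values are across miRNAs, which are not replicates. The 3 littermates and Cdr1as-/- mouse 1 were on slide 1 and Cdr1as-/- mice 2 and 3 on slide 2, so that on slide 2 slide and genotype cannot be told apart. Each result is given with all 6 arrays and without littermate 3. The tissue label was compared with 8 miRNAs of the intestinal epithelium (miR-192, miR-194, miR-215, and the miR-200 family). All 8 were detected on all 6 arrays, with a summed level between 16.04 and 17.17 on the log2 scale. In littermate 3 and Cdr1as-/- mouse 1 all 1831 miRNAs were detected, so detection does not check the label there. The values of these 8 in littermate 3, minus the mean of littermates 1 and 2, had a median of -2.96, beside 0.39 over all miRNAs. All 8 were lower there than in littermates 1 and 2, yet they still lay between percentiles 81.0 (miR-429-3p) and 99.8 (miR-194-5p) of that array. This list therefore does not settle the label for littermate 3.

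In the deposited normalized log2 values, all probes with a processed signal of at most 5 carried the same lowest value of their array, a floor that held 1680 probes in littermate 1, 310 in littermate 2, 1125 in Cdr1as-/- mouse 2, and 829 in Cdr1as-/- mouse 3. On the brighter arrays of littermate 3 and Cdr1as-/- mouse 1 the lowest value was held by 1 and 2 probes. Any value at the floor is an upper bound, and its order against other values there is not known. The deposited probe table kept only probes called well above background by the scanner software on at least 3 of the 6 arrays, so that a member that is listed was detected somewhere.

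Detection separated the members. Every probe of miR-290a-5p, miR-292a-5p, and miR-293-5p, the strands that share the seed CUCAAAC, was well above background on every array, in 30 of 30 probe readings each. miR-291a-5p passed in 22 of 30 readings and miR-292b-5p in 7 of 12. Among the 3p members, miR-292a-3p passed in 14 of 18 readings, miR-291a-3p in 20 of 30, miR-295-3p in 9 of 18, and miR-294-3p in 6 of 12. None of the 3p members was therefore clear of background on every array with all its probes. As only probes passing on at least 3 of the 6 arrays were kept, miR-295-3p and miR-294-3p had the lowest share a listed member can show. Probes left out of the deposited values are not counted in these shares.

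By arm, 119 of 132 readings of the 5p probes (90.15%) and 49 of 78 readings of the 3p probes (62.82%) were well above background, beside 85.54% over all deposited miRNA probes. Littermate 1 and Cdr1as-/- mouse 2, the arrays with the fewest miRNA probes above background, accounted for most of the missing 3p readings. The 3p probes passed in 2 of 13 readings in littermate 1 and in 1 of 13 in Cdr1as-/- mouse 2, where the 5p probes passed in 18 and 15 of 22. Over all deposited miRNA probes, 76.88% and 47.77% passed on these arrays. In littermate 3 and Cdr1as-/- mouse 1 every 5p and 3p probe passed, but so did 100% and 99.99% of all deposited miRNA probes. Probe readings at the floor made up 9.09% of the 5p readings (12 of 132), 21.8% of the 3p readings (17 of 78), and 6.49% of all readings. The contrast of the arms belongs to the way the members were chosen and is described without a test, and different probes bind their targets differently, so that it gives no ratio of strands in the tissue.

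**Figure D1:**
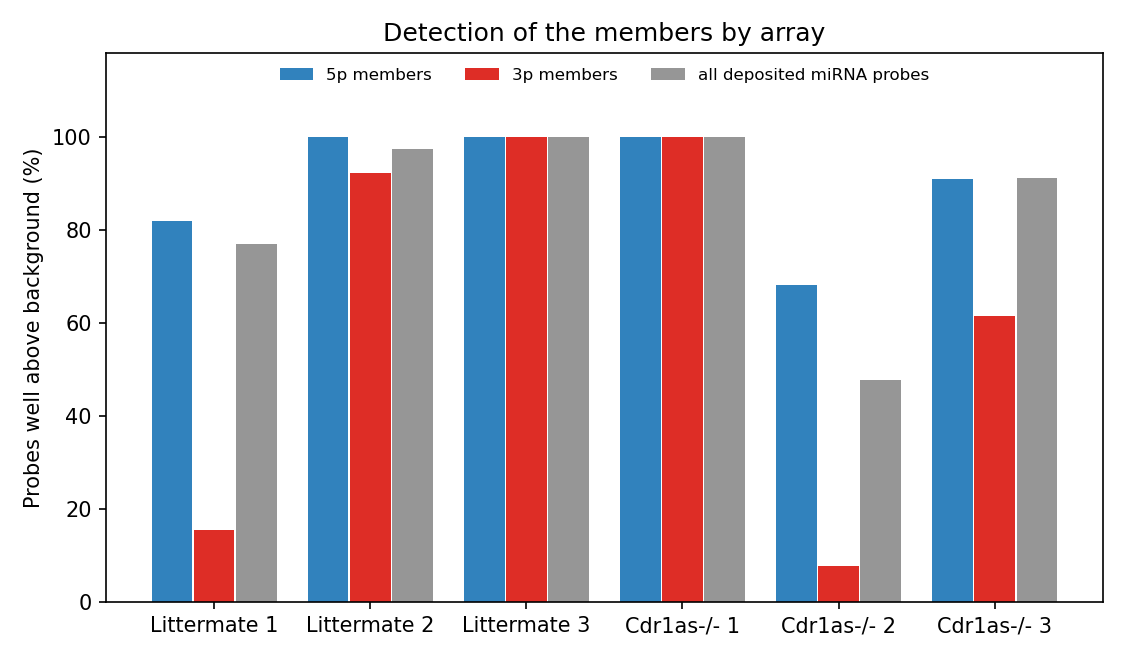
Share of probes well above background on each array (percent), for the 22 probes of the 5p members (blue), the 13 probes of the 3p members (red), and all 8437 deposited miRNA probes (grey). The 3p share falls to 15.38% in littermate 1 and 7.692% in Cdr1as-/- mouse 2, where the share of all probes is 76.88% and 47.77%. The 5p share stays at 68.18% or above on every array.

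The place of each member among the 1831 miRNAs of the same array gave the same division. miR-292a-5p lay between percentiles 71.8 and 80.3 over the 6 arrays, miR-290a-5p between 62.7 and 76.5, and miR-293-5p between 60.9 and 71.5. These 3 strands were in the upper part of every array, although an upper place on an array where most probes are dim still corresponds to a low signal. The processed signal of miR-292a-5p, averaged over its probes, read 22.3, 28.4, and 1516 across littermates 1 to 3, against 120, 43.6, and 35.2 across Cdr1as-/- mice 1 to 3. miR-291a-5p had the widest range of the 9 members, from percentile 15.7 in Cdr1as-/- mouse 2 to 52.98 in Cdr1as-/- mouse 3. The 3p members miR-291a-3p and miR-292a-3p reached at most percentiles 29.1 and 38.9, and miR-292b-5p, miR-294-3p, and miR-295-3p at most 17.4, 23.3, and 13.98.

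**Figure D2:**
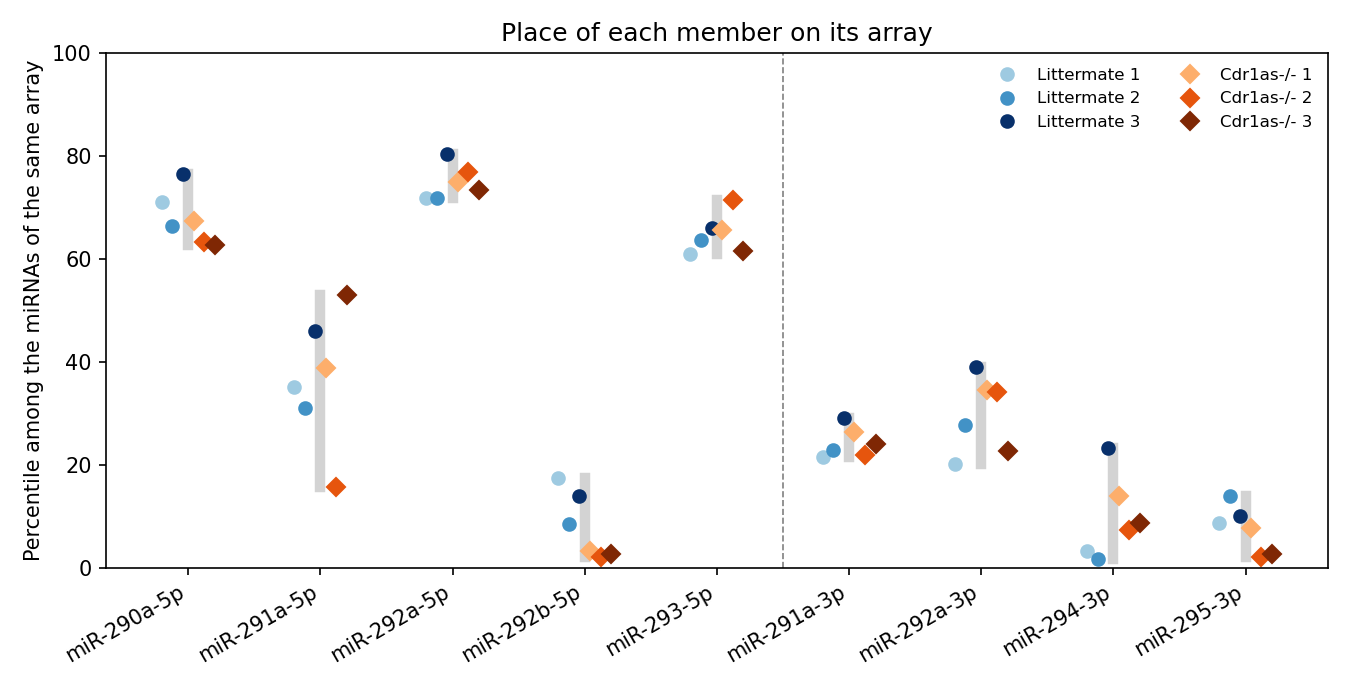
Percentile of each member among the 1831 miRNAs of the same array, 1 point per mouse (circles, littermates, diamonds, Cdr1as-/- mice), 5p members left and 3p members right of the dashed line, with a grey bar from the lowest to the highest. miR-290a-5p, miR-292a-5p, and miR-293-5p lie at percentile 60.9 or above on all 6 arrays and every 3p member lies at 38.9 or below.

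No member passed the test for a difference between genotypes, by limma with Benjamini-Hochberg adjustment. In mucosa, fewer cells of a type and less RNA per cell cannot be told apart. Of the 9 members, 7 were detected, with a probe above background on all arrays of 1 or both groups, and were tested among 1635 miRNAs, and miR-294-3p and miR-295-3p were not tested. With 6 arrays, 0 of the 1635 miRNAs were called at an adjusted p under 0.05, a background of 0%, and 6 (0.367%) had an unadjusted p under 0.05, none of them a member. The median log2 difference, Cdr1as-/- mice minus littermates, was -0.12 over the 5p members and 0.00 over the 3p members, beside -0.07 over all 1831 miRNAs. Without littermate 3 the background was again 0% at an adjusted p under 0.05, 223 miRNAs (13.6%) had an unadjusted p under 0.05, and no member was among them. The adjusted p of the tested members by limma was 0.99997 with 6 arrays. Without littermate 3 the medians were 0.16 for both arms and 0.09 over all miRNAs. The methods' t-test, unpaired and 2-tailed and run on the same values, gave 21 miRNAs (1.28%) at an unadjusted p under 0.05 with 6 arrays, 165 (10.1%) without littermate 3, and 0 in both sets after adjustment. The only member at an unadjusted p under 0.05 by this test, in both sets, was miR-292b-5p, which passed the filter through the littermates alone, the group where it was higher, so that its test is not read. miR-291a-5p and miR-291a-3p also passed through the littermates alone.

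The 3 well-detected 5p strands were measured as follows on the deposited log2 scale. miR-290a-5p read 5.81, 5.49, and 6.58 across littermates 1 to 3, against 5.54, 5.33, and 5.25 across Cdr1as-/- mice 1 to 3. Cdr1as-/- mice 2 and 3 were below every littermate, but Cdr1as-/- mouse 1 was above littermate 2, so the groups overlapped. The mean was lower in Cdr1as-/- mice, going from 5.96 ± 0.56 (SD of 3 mice) to 5.37 ± 0.15 (SD of 3 mice), a difference of -0.59 (SE 0.34), or 0.666-fold. This did not pass the test. Littermate 3 carried much of this difference, which was -0.28 (SE 0.24, adjusted p 0.476 by limma) without it. All 5 probes of miR-290a-5p were lower in Cdr1as-/- mice in both sets, and these probes read the same RNA and are not replicates.

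miR-292a-5p read 5.91, 5.96, and 6.97 across littermates 1 to 3, against 6.17, 6.33, and 5.99 across Cdr1as-/- mice 1 to 3. Littermate 3 was the highest and littermates 1 and 2 the lowest of the 6 arrays, so that its direction depended on 1 array. The difference was -0.12 (SE 0.36) with 6 arrays and 0.23 (SE 0.23, adjusted p 0.551 by limma) without littermate 3, where all 3 Cdr1as-/- mice lay above the remaining 2 littermates. Among all miRNAs tested, 20.9% had groups that did not overlap in this direction without littermate 3. All 5 of its probes were lower with 6 arrays and all 5 were higher without littermate 3.

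miR-293-5p read 5.17, 5.34, and 5.69 across littermates 1 to 3, against 5.46, 5.88, and 5.19 across Cdr1as-/- mice 1 to 3. Its groups overlapped, with Cdr1as-/- mouse 2 the highest and littermate 1 the lowest. The difference was 0.11 (SE 0.29) with 6 arrays and 0.25 (SE 0.27) without littermate 3 (adjusted p 0.566 by limma). Among the 3 members with the seed CUCAAAC, the difference with 6 arrays was therefore below 0 for miR-290a-5p and miR-292a-5p and above 0 for miR-293-5p, none of them past the test.

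miR-292b-5p, the minus-strand member, had values at the floor, and its test is not read. It read 3.39, 3.28, and 3.33 across littermates 1 to 3, against 3.06, 2.69, and 2.70 across Cdr1as-/- mice 1 to 3. All 3 Cdr1as-/- mice were below all 3 littermates. In Cdr1as-/- mice 2 and 3, however, both of its probes were at the floor and not well above background, so that 2.69 and 2.70 are the lowest values of those arrays and only bound its level. Groups without overlap in this direction were found for 2.69% of all miRNAs tested with 6 arrays and 21.7% without littermate 3, and nothing is read from the place of miR-292b-5p among them.

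The difference of its deposited means was -0.52 in both sets, which holds 2 bounds and is no measured size. With 6 arrays it was -0.07 with normexp background correction and 0.10 with all values raised to the lowest detected value of their array. Normexp added an offset of 50, which by construction shrinks differences between signals of 3.635 to 9.295, as outside littermate 3. The lowest detected value was 4.86 in Cdr1as-/- mouse 2, above every littermate. Neither setting therefore measures the size of the difference. Both mice at the floor were on slide 2. On slide 1, where both probes of Cdr1as-/- mouse 1 were well above background, its value of 3.06 was -0.28 from the mean of the 3 littermates on the same slide. In the scanner output, scaled to the 75th percentile of each array, the brighter probe read -4.81, -5.02, and -5.50 in the littermates and -6.25 in Cdr1as-/- mouse 1. In Cdr1as-/- mouse 2 that probe was at 3.73, the lowest processed signal of its array, so the scanner output gives only a bound there too. The part of the slide and of the dim signal was not tested.

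miR-291a-5p read 4.02, 3.91, and 4.58 across littermates 1 to 3, against 4.20, 3.44, and 4.75 across Cdr1as-/- mice 1 to 3. Cdr1as-/- mice held both the highest and the lowest value, with an SD of 0.66 against 0.36 in littermates. In the lowest of them, Cdr1as-/- mouse 2, none of its 5 probes was well above background and 4 were at the floor. Littermate 1 had 3 of the 5 probes at the floor. The difference was -0.04 (SE 0.41) with 6 arrays and 0.16 (SE 0.37) without littermate 3, both far smaller than the spread between mice.

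**Figure D3:**
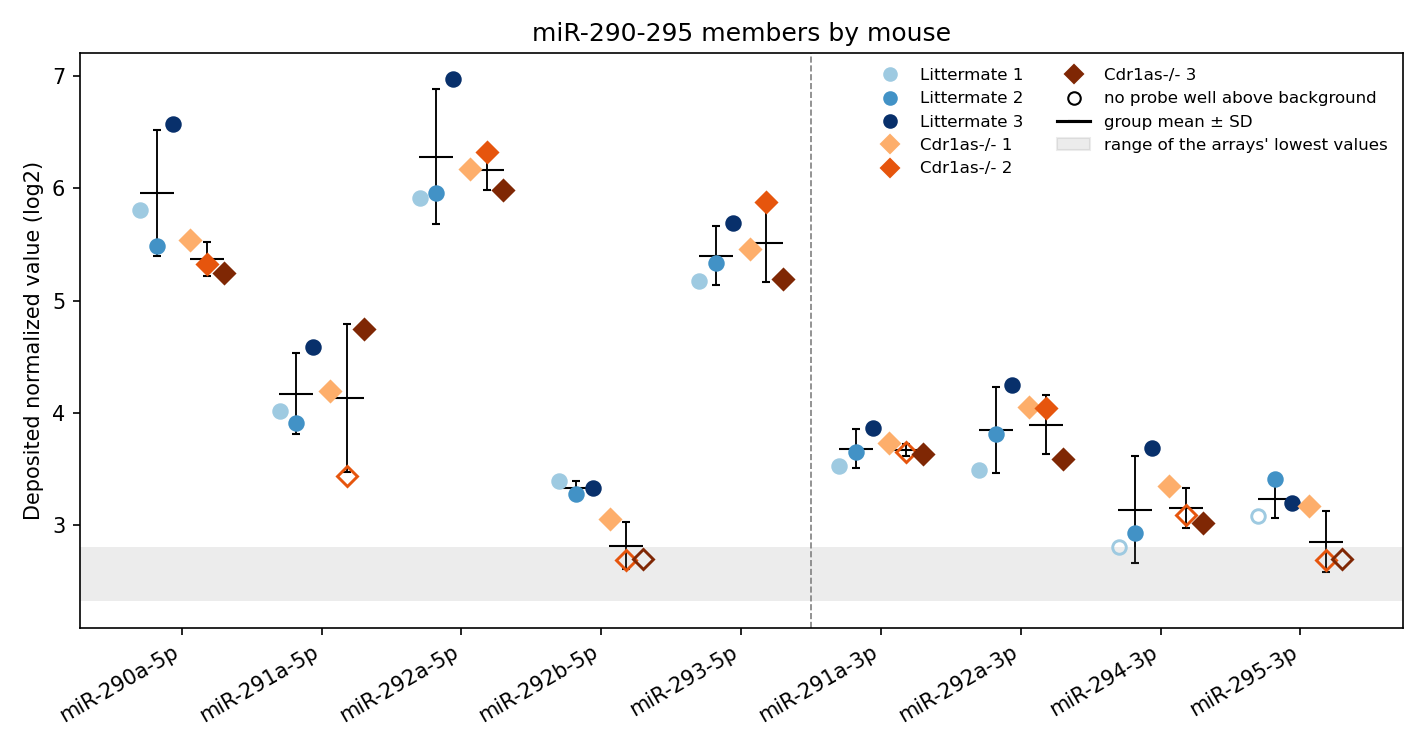
Deposited normalized log2 value of each member, 1 point per mouse (circles, littermates, diamonds, Cdr1as-/- mice, open where no probe was well above background), with group mean ± SD of 3 mice, 5p members left and 3p members right of the dashed line, and a grey band spanning the lowest values of the 6 arrays. miR-292b-5p and miR-295-3p lie at the floor in Cdr1as-/- mice 2 and 3, miR-294-3p does so in littermate 1, and miR-292b-5p is the only member whose groups do not overlap.

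The 3p members lay closer together. miR-291a-3p, the partner strand of miR-291a-5p, read 3.53, 3.65, and 3.87 across littermates 1 to 3, against 3.74, 3.65, and 3.63 across Cdr1as-/- mice 1 to 3. The Cdr1as-/- values fell inside the range of the littermates, and the difference was -0.01 (SE 0.22) with 6 arrays and 0.08 (SE 0.22) without littermate 3. miR-292a-3p read 3.49, 3.81, and 4.25 across littermates 1 to 3, against 4.05, 4.04, and 3.59 across Cdr1as-/- mice 1 to 3. Its Cdr1as-/- values were likewise inside the range of the littermates, and the difference was 0.05 (SE 0.30) with 6 arrays and 0.25 (SE 0.26) without littermate 3. Their adjusted p by limma was 0.836 and 0.561 without littermate 3. miR-291a-3p had no probe well above background in Cdr1as-/- mouse 2 and passed the filter through the littermates alone, which limits its test.

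miR-294-3p and miR-295-3p, which drive the embryonic stem cell cycle with miR-291a-3p, were the least detected members by their share of readings and were not tested. miR-294-3p read 2.80, 2.93, and 3.68 across littermates 1 to 3, against 3.35, 3.09, and 3.02 across Cdr1as-/- mice 1 to 3, with littermate 1 at the floor. The Cdr1as-/- mice lay between the lowest and the highest littermate. The difference of the means was 0.01 with 6 arrays and 0.29 without littermate 3. In that set all 3 Cdr1as-/- mice lay above littermates 1 and 2, and the floor value of littermate 1 leaves the size uncertain. Among all miRNAs tested, 20.9% had groups without overlap in this direction without littermate 3, so nothing is read from this place. miR-295-3p read 3.09, 3.41, and 3.20 across littermates 1 to 3, against 3.17, 2.69, and 2.70 across Cdr1as-/- mice 1 to 3. The last 2 values were at the floor with all 3 probes, on slide 2, as for miR-292b-5p. On slide 1, Cdr1as-/- mouse 1 lay inside the range of the littermates and differed from their mean by -0.06, against a difference of the deposited means of -0.38 over all 6 arrays, which holds the 2 floor values and is no measured size.

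**Figure D4:**
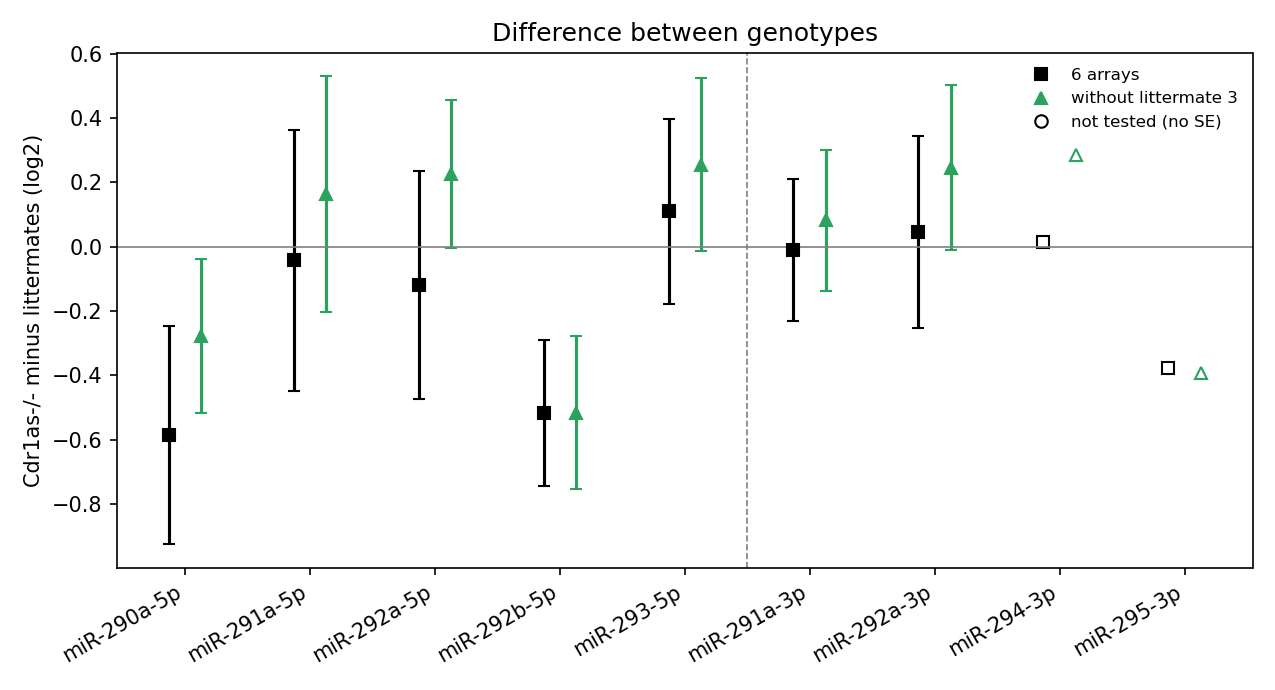
Difference between genotypes for each member (Cdr1as-/- mice minus littermates, log2) with 6 arrays (black squares) and without littermate 3 (green triangles), bars showing the SE from limma and open symbols the untested members. miR-290a-5p, miR-292b-5p, and miR-295-3p are below 0 in both sets, while miR-291a-5p, miR-292a-5p, and miR-291a-3p cross from below to above 0 when littermate 3 is left out. The points of miR-292b-5p, miR-294-3p, and miR-295-3p include values at the floor. The bar of miR-292b-5p comes from a test that is not read. The points of miR-291a-5p, miR-291a-3p, and miR-292a-3p include single probe readings at the floor.

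Leaving out littermate 3 raised the difference of 7 of the 9 members, as this array read them higher than its fellow littermates. Its deposited value exceeded the mean of littermates 1 and 2 by 1.04 for miR-292a-5p, 0.93 for miR-290a-5p, 0.82 for miR-294-3p, 0.62 for miR-291a-5p, 0.60 for miR-292a-3p, 0.43 for miR-293-5p, and 0.28 for miR-291a-3p. The exceptions were miR-292b-5p and miR-295-3p, at -0.00 and -0.05. The median over all 1831 miRNAs was 0.39. Before scaling, the signal of the members in littermate 3 was between 13.8 and 59.8 times the mean of littermates 1 and 2, and the median signal of all miRNA probes was 23.7 times that mean. The intestinal epithelial miRNAs had a summed level of 16.04 in littermate 3 and between 17.05 and 17.17 elsewhere, and the immune list (miR-142a, miR-150, miR-155, and miR-223) 9.11 in littermate 3 and between 11.9 and 12.7 elsewhere. The smooth muscle list (miR-143, miR-145a, miR-1a, and miR-133a) summed to 7.01 in littermate 3, to 11.2 and 11.1 in littermates 1 and 2, and to between 9.99 and 12.5 in Cdr1as-/- mice. The erythroid pair, miR-451a and miR-144-3p, summed to 5.78 in littermate 3, to 10.1 and 8.20 in littermates 1 and 2, and to between 7.42 and 8.11 in Cdr1as-/- mice. All miRNAs of these lists were detected on all 6 arrays, and in littermate 3 so were all 1831 miRNAs. The part of these shifts in the members' differences was not tested.

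Both arms of a hairpin were among the members for miR-291a and miR-292a, so their 5p minus 3p difference could be followed from mouse to mouse. For miR-292a it read 2.42, 2.15, and 2.72 across littermates 1 to 3, against 2.12, 2.29, and 2.39 across Cdr1as-/- mice 1 to 3. The range over all 6 mice was 0.60, and the groups overlapped. The difference changed by -0.16 between genotypes with 6 arrays and by -0.02 without littermate 3, beside an SD of 0.29 in littermates and 0.14 in Cdr1as-/- mice. Both strands of miR-292a were at their highest in littermate 3.

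For miR-291a the 5p minus 3p difference read 0.49, 0.26, and 0.71 across littermates 1 to 3, against 0.46, -0.21, and 1.12 across Cdr1as-/- mice 1 to 3. It ranged over 1.33, from Cdr1as-/- mouse 2, where neither strand had a probe well above background, to Cdr1as-/- mouse 3. The spread came from the 5p strand, as the 3p strand lay between 3.53 and 3.87 in all 6 mice. The change between genotypes was -0.03 with 6 arrays and 0.08 without littermate 3, against an SD of 0.66 in Cdr1as-/- mice. These values are given as a description, since the contrast of arms was part of the choice of members.

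**Figure D5:**
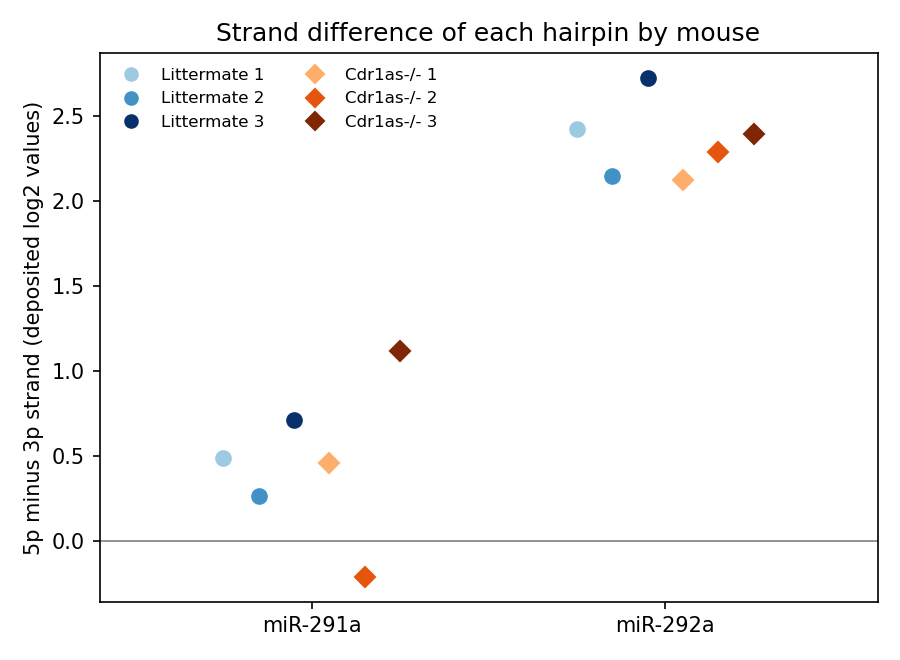
The 5p minus 3p difference of the deposited log2 values of miR-291a and miR-292a, 1 point per mouse (circles, littermates, diamonds, Cdr1as-/- mice). The height of a hairpin's points reflects its probes as well as its RNA, and the points of miR-292a span 0.60 and those of miR-291a 1.33, with the genotypes overlapping in both.

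The other 8 strands of the cluster in the table (miR-290a-3p, miR-290b-3p, miR-291b-5p, miR-291b-3p, miR-292b-3p, miR-293-3p, miR-294-5p, and miR-295-5p) were examined beside the members. Of these, 5 were tested and 0 were called in either set by limma. With 6 arrays, 7 of the 8 had a difference below 0, with a median of -0.15, and without littermate 3, 6 of the 8, with a median of -0.24. Of all 1831 miRNAs, 1115 were below 0 with 6 arrays and 786 without littermate 3. Only miR-295-5p had an unadjusted p under 0.05 in a set, at 0.00788 without littermate 3, where 11.6% of all miRNAs tested were lower at that threshold. It read 5.44, 5.06, and 4.09 across littermates 1 to 3, against 4.21, 4.47, and 4.52 across Cdr1as-/- mice 1 to 3. All Cdr1as-/- mice were below littermates 1 and 2 and above littermate 3. Without littermate 3, 21.7% of all miRNAs tested had groups without overlap and lower in Cdr1as-/- mice. The difference was -0.46 (SE 0.39) with 6 arrays and -0.85 (SE 0.24, adjusted p 0.241 by limma) without littermate 3.

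The cluster of miR-302 and miR-367, the other cluster typical of pluripotent cells, was taken as a second sign of such cells. All 10 of its strands were tested, 3 were detected on all 6 arrays, and 0 were called in either set by limma. Over the 6 arrays these 3 lay between percentiles 82.6 and 88.7 (miR-302c-3p), 64.0 and 78.2 (miR-302b-3p), and 50.2 and 70.8 (miR-367-3p). miR-302c-3p was thus above every member, whereas miR-302d-3p reached at most 35.4. The median difference was -0.05 with 6 arrays and 0.27 without littermate 3. Only 1 strand, miR-367-5p, had an unadjusted p under 0.05, lower in Cdr1as-/- mice without littermate 3, as were 11.6% of all miRNAs tested. None of its probes was well above background in Cdr1as-/- mouse 2. It passed the filter through the littermates alone, the group where it was higher, so that its test is not read. miR-302b-3p and miR-302d-3p share the seed AAGUGCU with miR-291a-3p, miR-294-3p, and miR-295-3p, miR-291b-5p shares that of miR-291a-5p, and miR-294-5p that of miR-292b-5p. Over these 4 miRNAs the median difference was -0.03 and 0.34 in the 2 sets, and 0 of the 3 that were tested were called.

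The miR-17 family, whose seed is related and which is abundant in dividing cells of many tissues, was the nearest comparison outside pluripotent cells. All 6 of its strands (miR-17-5p, miR-20a-5p, miR-20b-5p, miR-93-5p, miR-106a-5p, and miR-106b-5p) were detected on every array. Their median difference was -0.31 with 6 arrays and -0.42 without littermate 3, where all 6 were below 0, beside 786 of all 1831 miRNAs. Of these 6, 0 passed an unadjusted p of 0.05 in either set.

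The mean profile of each arm over the 6 arrays was matched with all other miRNAs by the root mean square difference of log2 values, each centred on its own mean. The 5p profile was highest in littermate 3, at 0.52, and between -0.18 and -0.03 in the other mice. Nearest to it were miR-6381 at 0.063, miR-302c-5p at 0.064, and miR-6897-3p at 0.067, where the median over all other miRNAs was 0.35. The 5p members themselves lay farther from their mean, between 0.20 and 0.38. The 3p profile was 0.32 in littermate 3 and between -0.21 and 0.14 elsewhere. Nearest to it were miR-181d-3p at 0.065, miR-6367 at 0.068, and miR-467b-5p at 0.073, beside a median of 0.34, and the 3p members lay between 0.09 and 0.23.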

How the data were processed

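Small RNAs were measured on 6 one-colour Cy3 arrays, grouped by the genotype and number in their labels. Per the labels, the authors used Agilent Feature Extraction 11.0.1.1, and the deposited scanner output holds background-subtracted signal intensities, not normalized between arrays. The deposited tables give normalized log2 values for 10690 of 14192 probes and for 1831 miRNAs. The normalization is not given in the sources used here, and the methods name another array type than the scanner output. The probes of each miRNA were inferred from the values. They were taken as the run of 1 to 5 consecutive probe numbers whose mean unlogged value gave the deposited miRNA value (tolerance 0.0005 in log2). A match was found for all 1831 miRNAs, with a largest difference of 4.99e-09. All probe counts and probe readings above rest on this inferred assignment. The authors' own fold changes, p-values, and q-values in that table were not used.

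For each miRNA, lmFit and eBayes of limma 3.58.1 (R 4.3.3) were run on the deposited log2 values, with Benjamini-Hochberg adjustment over 1635 miRNAs that had a probe above background on all arrays of 1 or both groups. The code was tested on simulated data. Alternatives were scanner signal scaled to the 75th percentile (of detected or of all probes, brightest probe), normexp (offset 50, on median signals) with quantile normalization, no filter, a floor at the lowest detected value, replicate number or slide as a block, the methods' t-test, and each array left out. The number of arrays limits the precision. No spot was saturated. Sequences and positions are from RefSeq (GRCm38.p6), which matched 1558 of the 1831 miRNAs. Named miRNAs were all members, members of the lists where a count needed them, and the 3 nearest to each arm's mean profile. Members and lists were chosen with earlier results of these data known. Python 3.11.15, pandas 2.3.3, SciPy 1.17.1, and matplotlib 3.10.9 were used.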

Additional observations from a re-analysis of the deposited data

How the results depend on the processing

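No member was called by limma or the methods' t-test under any alternative, with 6 arrays or without littermate 3. With 6 arrays as the start, 0 miRNAs were called under every alternative except 1 without littermate 3 on scanner signal. Without littermate 3, 1 miRNA was called on scanner signal with either percentile and 324 with the slide as a block, where Cdr1as-/- mouse 1 alone stands for its genotype. Leaving out 1 further array gave between 0 and 201, 201 without Cdr1as-/- mouse 2 and 1 without littermate 2. The number of miRNAs at an unadjusted p under 0.05 with 6 arrays was 6, 0 on scanner signal with the percentile of detected probes, 2 with that of all probes, 2 with the floor, 3 with either block, and 21 by the methods' t-test.

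Of the 9 members, miR-290a-5p kept its direction in 15 of 15 alternatives. miR-292b-5p and miR-295-3p kept theirs in 14 of 15, turning to 0.10 and 0.13 with the floor at the lowest detected value, which raises Cdr1as-/- mouse 2 to 4.86 by construction. miR-292b-5p was -0.92 on scanner signal (percentile of detected probes), -0.82 (of all probes), -0.07 with normexp, and -0.28 with the slide as a block. miR-294-3p, at 0.01, kept its direction in 8 of 15, the fewest, and was -0.17 and -0.067 on scanner signal (detected and all probes), -0.024 with normexp, and -0.0055 without littermate 3 on scanner signal. Other changes of direction were 0.43 (floor) and 0.025 (slide) for miR-291a-5p, 0.40 for miR-292a-5p without littermate 3 on scanner signal, -0.14 and -0.037 for miR-293-5p on scanner signal (detected and all probes), and 0.021 (all probes), 0.33 (floor), and 0.052 (slide) for miR-291a-3p. The median of the 3p members was 0.24 with the floor, and the change of the strand difference of miR-292a was 0.19 without littermate 3 on scanner signal.

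With 1 array left out in turn, the log2 differences ranged from -0.82 to -0.28 for miR-290a-5p, -0.35 to 0.30 for miR-291a-5p, -0.30 to 0.23 for miR-292a-5p, -0.64 to -0.45 for miR-292b-5p, -0.075 to 0.27 for miR-293-5p, -0.088 to 0.082 for miR-291a-3p, -0.13 to 0.25 for miR-292a-3p, -0.15 to 0.29 for miR-294-3p, and -0.53 to -0.29 for miR-295-3p. The medians ranged from -0.35 to 0.16 (5p) and -0.14 to 0.16 (3p), and the change of the strand difference from -0.36 to 0.30 (miR-291a) and -0.31 to -0.019 (miR-292a). The causes were not tested.

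Groups shared replicate numbers, but the deviations of same-numbered mice correlated at -0.774, 0.582, and -0.238, so the numbers were not taken as pairs, and the replicate block called 0 miRNAs in both sets. Dim signal limits miR-292b-5p, miR-294-3p, and miR-295-3p, whose values reach the floor. It also limits miR-291a-5p, miR-291a-3p, and miR-292a-3p, with 7 of 30, 2 of 30, and 2 of 18 probe readings at the floor.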
